A study of Mus musculus with 2 samples.

Results

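The genes described are erythroid genes and globins, transcripts of the red cell lineage, read in mouse liver. They were 8 genes chosen by name: the adult globins Hba-a1, Hba-a2, Hbb-bs and Hbb-bt, and the erythroid genes Alas2, Slc4a1, Ahsp and Klf1. Of the 8, 7 had a row in both count tables, out of 55421 genes in all, and these 7 all passed a filter on low values (a mean over the libraries of 50 counts or more), as did 12064 genes in all. Ahsp, which encodes a chaperone of free alpha globin, is not analysed here.

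The study compared liver RNA of Rcrin conditional knockout mice with that of Rcrin flox mice, which carry a floxed but intact gene and are called WT. There was 1 library per genotype, both labelled with a time of 8 weeks. The sources used here give no Cre driver, target cell, strain, sex, perfusion or number of mice. The knockout library held 63587567 counts and the WT library 65121596. The spread between mice is therefore unknown and no test was made. The level of Rcrin itself is not analysed here. Every difference below is between these 2 libraries, and every interval is a 95% interval for counting error only. The intervals take reads as independent and can be too narrow.

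Hemoglobin is a tetramer of paired alpha and beta globin chains, each holding a heme. Erythroblasts switch on the globin genes, the enzymes of heme synthesis and the proteins of the red cell membrane under the transcription factors Gata1 and Klf1. They then lose the nucleus and become reticulocytes, which still hold globin mRNA. Adult mouse liver is not a main site of red cell formation, and the blood left in it carries reticulocytes. In bulk RNA, fewer cells of a type and less RNA per cell cannot be told apart.

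The alpha pair and the beta pair are near-identical copies, which decides how far their separate counts can be read. Over 426 coding bases Hba-a1 and Hba-a2 had 1 difference, and over 441 coding bases Hbb-bs and Hbb-bt had 1 difference. The longest stretch with no difference was 380 bases in the alpha pair and 416 bases in the beta pair. By contrast, Hba-a1 and Hbb-bs were 52.9% identical over 444 aligned columns. The 60 coding bases around the difference are given from GENCODE M21 transcripts on GRCm38, 5′ to 3′, with the only base that differs within each pair in capitals. They lie at chr11:32284313-32284372 (plus strand) for Hba-a1, chr11:32297130-32297189 (plus) for Hba-a2, chr7:103826668-103826727 (minus) for Hbb-bs and chr7:103812659-103812718 (minus) for Hbb-bt.
Hba-a1: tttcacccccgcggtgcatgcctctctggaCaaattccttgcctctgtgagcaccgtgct
Hba-a2: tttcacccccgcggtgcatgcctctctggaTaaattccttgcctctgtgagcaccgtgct
Hbb-bs: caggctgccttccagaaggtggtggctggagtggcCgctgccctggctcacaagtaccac
Hbb-bt: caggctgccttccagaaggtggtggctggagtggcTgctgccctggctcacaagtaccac
A read that misses this base and the untranslated ends can come from either copy. The sources used here do not say how such reads were counted, so the sum of each pair is firmer than its members.

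The adult globins stood several-fold lower in the knockout library, and Alas2 and Klf1 did not. Together the 4 globins held 29837 counts in the knockout library and 190579 in the WT library, which is 0.0469% of the knockout counts and 0.293% of the WT counts. After TMM scaling the knockout library was 6.02-fold lower (log2 ratio -2.59, interval -2.61 to -2.57). Of the 7 genes, 5 were at least 2-fold lower in the knockout library and 0 were at least 2-fold higher, and their median log2 ratio was -2.34. Among all 12064 genes compared, 8.61% were lower by as much, 8.45% were higher, and the median was -0.01. The same 5 genes were also at least 4-fold lower, as were 2.80% of all genes, and 0 were at least 4-fold higher, as were 2.51% of all genes.

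**Figure D1:**
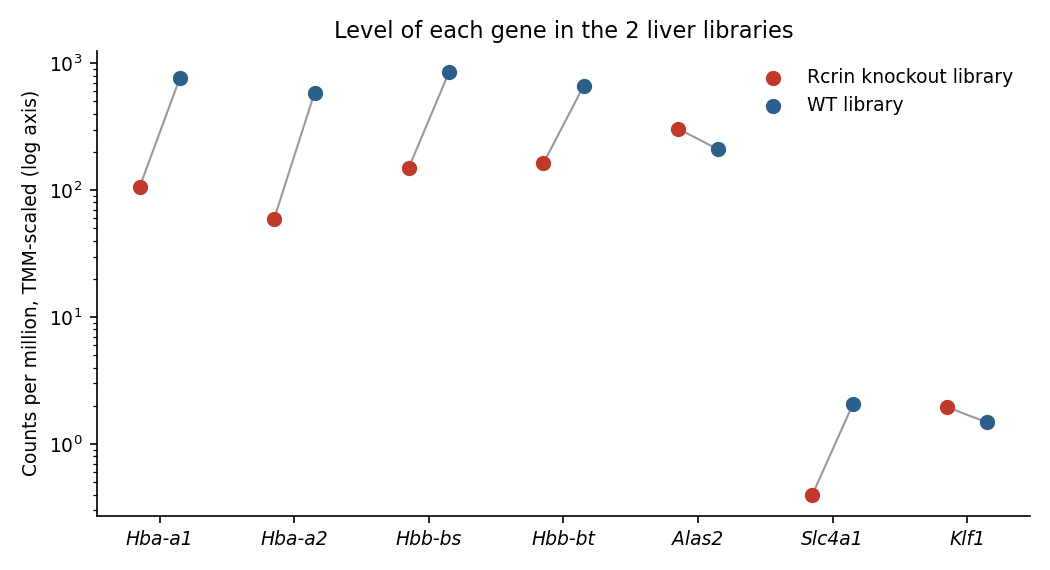
Level of each gene in CPM (counts scaled to a library of 1000000) after TMM scaling (log axis), with the Rcrin knockout library in red and the WT library in blue, 1 library each. The 4 globins and Slc4a1 lie lower in the knockout library, while Alas2 and Klf1 lie slightly higher.

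The alpha chains showed the larger difference. Hba-a2 (ENSMUSG00000069917, GRCm38 chromosome 11 from 32296489 to 32297298, 3 exons) had 3720 counts in the knockout library and 38870 in the WT library (log2 ratio -3.30, interval -3.35 to -3.25). Hba-a1 (ENSMUSG00000069919, chromosome 11 from 32283511 to 32284465, 3 exons) had 6601 and 51051 counts in the knockout and WT libraries (log2 ratio -2.87, interval -2.90 to -2.83). The 2 alpha genes together held 10321 knockout counts and 89921 WT counts, 8.21-fold lower in the knockout library.

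The beta chains were lower by less. Hbb-bs (ENSMUSG00000052305, chromosome 7 from 103826534 to 103828096, 3 exons) had 9363 counts in the knockout library and 56698 in the WT library (log2 ratio -2.51, interval -2.54 to -2.48). Hbb-bt (ENSMUSG00000073940, chromosome 7 from 103812524 to 103813996, 3 exons) had 10153 and 43960 counts in the knockout and WT libraries (log2 ratio -2.03, interval -2.06 to -1.998). The 2 beta genes together held 19516 knockout counts and 100658 WT counts, 4.86-fold lower in the knockout library. All 4 globin genes have 3 exons. Among the 648 genes compared with 3 exons, 13.4% were at least 2-fold lower in the knockout library and 14.8% at least 2-fold higher.

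Slc4a1, the anion exchanger that spans the red cell membrane and anchors its skeleton, lay on the side of the globins. It is on chromosome 11 from 102348824 to 102366203 (ENSMUSG00000006574, 20 exons). It had 25 counts in the knockout library and 136 in the WT library (log2 ratio -2.34, interval -3.04 to -1.74). The interval is wide because the gene was scarce in both libraries, at 0.400 and 2.05 CPM in the knockout and WT libraries. Of the 4106 genes compared with 10 to 20 exons, 6.75% were at least 2-fold lower in the knockout library.

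Alas2, the erythroid form of the enzyme that starts heme synthesis, stood on the other side. It lies on chromosome X from 150547375 to 150570638 (ENSMUSG00000025270, 11 exons). It had 19110 counts in the knockout library and 13871 in the WT library, 1.46-fold higher in the knockout library (log2 ratio 0.55, interval 0.52 to 0.58). That is less than 2-fold, and just outside the middle 50% of all genes compared, which ran from -0.44 to 0.44. Of the genes with 10 to 20 exons, 5.97% were at least 2-fold higher in the knockout library. Apex2, a DNA repair nuclease gene on the opposite strand, spans the whole of Alas2 in the annotation, and its exons cover 311 of the 2403 exon bases of Alas2 (12.9%). Apex2 had 287 counts in the knockout library and 819 in the WT library (log2 ratio -1.43). The sources used here do not say whether counting used strand, so reads in the shared bases are uncertain between the 2 genes.

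Klf1, the erythroid Krüppel-like factor that binds CACCC boxes of the beta globin promoter, was scarce in both libraries. It lies on chromosome 8 from 84901928 to 84905291 (ENSMUSG00000054191, 3 exons). It had 122 counts in the knockout library and 98 in the WT library (log2 ratio 0.40, interval 0.01 to 0.80). The lower bound of that counting interval is close to 0.

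**Figure D2:**
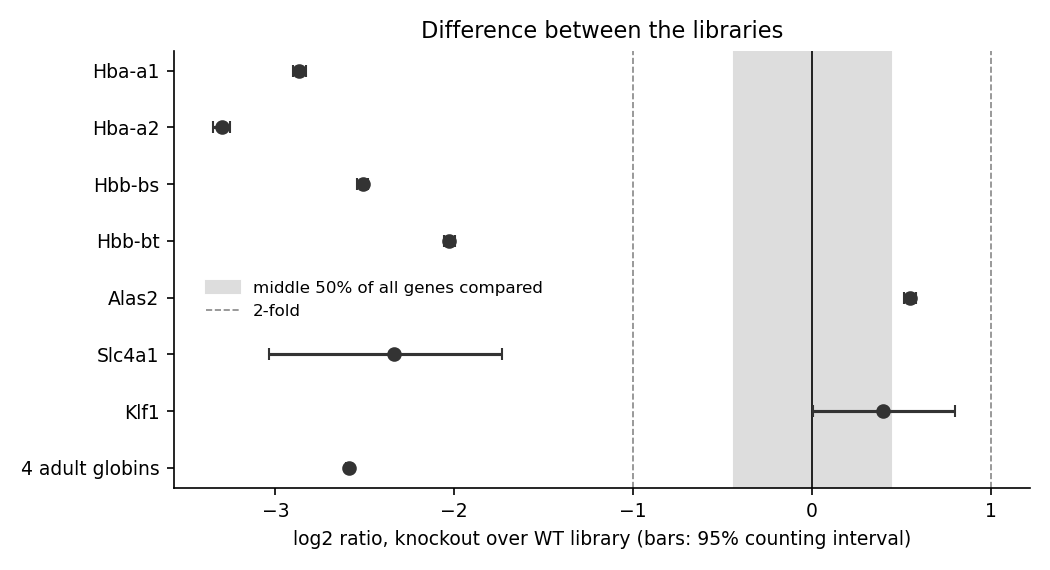
Log2 ratio of the knockout over the WT library for each gene and for the 4 adult globins summed, with 95% counting intervals as bars. The grey band holds the middle 50% of all genes compared (-0.44 to 0.44) and dashed lines mark 2-fold. The globins and Slc4a1 lie between -3.30 and -2.03, Klf1 at 0.40 and Alas2 at 0.55.

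Levels between genes were set side by side per length, as CPM for each 1000 bases of joined exons. In the knockout library the order was Hbb-bt (231), Hbb-bs (195), Hba-a1 (130), Alas2 (127), Hba-a2 (89.3), Klf1 (1.28) and Slc4a1 (0.0818). In the WT library it was Hbb-bs (1114), Hba-a1 (949), Hbb-bt (943), Hba-a2 (879), Alas2 (87.1), Klf1 (0.966) and Slc4a1 (0.420). Counting intervals overlapped for Hba-a1 and Alas2 in the knockout library, and for Hba-a1 and Hbb-bt in the WT library. No other neighbours in these orders overlapped. The order depends on the length used. With the median length of a gene's transcripts, the knockout order was Hbb-bs (368), Alas2 (249), Hbb-bt (231), Hba-a1 (177), Hba-a2 (114), Klf1 (1.28) and Slc4a1 (1.12). The WT order was then Hbb-bs (2102), Hba-a1 (1291), Hba-a2 (1119), Hbb-bt (943), Alas2 (170), Slc4a1 (5.75) and Klf1 (0.966). With both lengths Alas2 stood below all 4 globins in the WT library, while in the knockout library it stood above Hba-a2 with joined exons and above 3 of the 4 globins with median lengths.

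The make-up of the globin counts differed between the libraries as well, a comparison that does not depend on scaling. Alpha genes held 34.6% of the globin counts in the knockout library (exact Clopper-Pearson interval 34.1% to 35.1%) and 47.2% in the WT library (47.0% to 47.4%). There were 0.529 alpha counts per beta count in the knockout library and 0.893 in the WT library. Within the alpha pair, Hba-a1 held 64.0% in the knockout library (63.0% to 64.9%) and 56.8% in the WT library (56.4% to 57.1%). Within the beta pair, Hbb-bs held 48.0% in the knockout library (47.3% to 48.7%) and 56.3% in the WT library (56.0% to 56.6%). Each shift exceeded counting error as measured by these intervals, which take reads as independent. How reads shared within a pair were counted is unknown, and its part in the shifts within a pair was not tested.

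**Figure D3:**
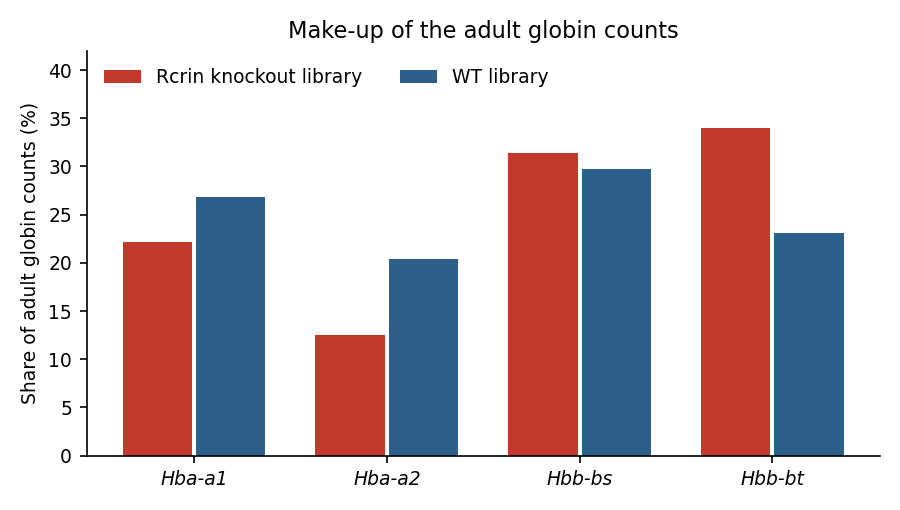
Share of the adult globin counts (%) held by each gene, with the knockout library in red and the WT library in blue. Hbb-bt is the largest part in the knockout library (34.0%, against 23.1% in WT), and Hba-a2 the smallest in both (12.5% in the knockout, 20.4% in WT).

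Within each library, the other genes were then set against the globins, which again needs no scaling. Alas2 had 640.5 counts per 1000 globin counts in the knockout library (interval 629 to 652) and 72.8 in the WT library (71.5 to 74.0), an 8.80-fold difference. Klf1 had 4.09 counts per 1000 globin counts in the knockout library (3.39 to 4.88) and 0.514 in the WT library (0.417 to 0.627), a 7.95-fold difference. Slc4a1 had 0.838 in the knockout library (0.542 to 1.24) and 0.714 in the WT library (0.599 to 0.844), and these intervals overlap. The quotient of Alas2 to Klf1 had intervals that overlap, with 157 Alas2 counts per Klf1 count in the knockout library (131 to 189) and 142 in the WT library (116 to 174). The difference in Slc4a1 per globin had a log2 value of 0.23 (interval -0.38 to 0.85), and that in Alas2 per Klf1 one of 0.15 (interval -0.24 to 0.53), so neither exceeded counting error.

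**Figure D4:**
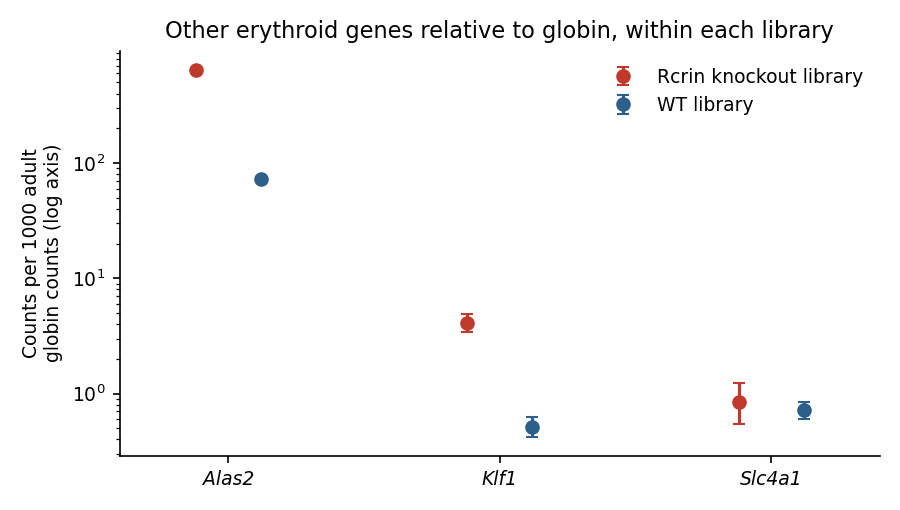
Counts of Alas2, Klf1 and Slc4a1 per 1000 adult globin counts (log axis) in the knockout library (red) and the WT library (blue), with exact 95% intervals for counting error. Alas2 (640.5 against 72.8 in WT) and Klf1 (4.09 against 0.514 in WT) differ widely, and the intervals of Slc4a1 overlap.

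The promoters of the globins and of Alas2 were chosen for display after their genes were seen to lie on opposite sides. Any link between promoter sequence and the ratios was not tested. The 150 bases before the RefSeq start are given (GRCm38.p6, 5′ to 3′ on the strand of the gene). Capitals mark matches on either strand to TATAA as the TATA box, to CCAAT as the box of that name, to CACCC as the box that Klf1 binds and to GATAA as a form of the motif that Gata1 binds. Where capitals run on, matches adjoin. The windows are chr11:32296342-32296491 (plus strand) for Hba-a2, chr7:103827929-103828078 (minus) for Hbb-bs, chr7:103813924-103814073 (minus) for Hbb-bt and chrX:150547267-150547416 (plus) for Alas2.
Hba-a2: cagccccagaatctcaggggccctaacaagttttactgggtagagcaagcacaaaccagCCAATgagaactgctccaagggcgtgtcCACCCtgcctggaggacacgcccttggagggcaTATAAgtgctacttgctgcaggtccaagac
Hbb-bs: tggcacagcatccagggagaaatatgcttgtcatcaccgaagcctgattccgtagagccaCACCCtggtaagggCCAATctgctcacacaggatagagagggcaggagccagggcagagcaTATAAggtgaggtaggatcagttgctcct
Hbb-bt: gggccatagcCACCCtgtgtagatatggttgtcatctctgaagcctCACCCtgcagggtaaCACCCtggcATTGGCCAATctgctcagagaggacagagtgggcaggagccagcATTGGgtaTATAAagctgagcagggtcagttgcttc
Alas2: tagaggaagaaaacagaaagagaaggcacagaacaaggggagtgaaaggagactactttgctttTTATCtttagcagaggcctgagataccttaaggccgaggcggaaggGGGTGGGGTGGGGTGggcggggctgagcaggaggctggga
The window of Hba-a1 matched that of Hba-a2 at all 147 bases they share, at an offset of 3 bases, and is not repeated. All 4 globin windows held a TATA box, a CCAAT box and a CACCC box, and 0 of 4 held GATAA. The Alas2 window held CACCC 3 times, on the opposite strand, and GATAA once, and held neither the TATA box nor the CCAAT box. The Klf1 window held 1 CCAAT box, 1 CACCC box and 1 GATAA, with no TATA box. Of 32851 promoter windows of the same length, 14.2% held the TATA box, 24.5% the CCAAT box, 37.4% the CACCC box and 13.3% GATAA. These matches describe letters in a window and are not binding sites, and Slc4a1 had no entry in the table.

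The other globin genes gave little signal. Of 11 embryonic, theta and non-erythroid globin genes, 7 were listed at 0 in both libraries. These were the embryonic genes Hba-x, Hbb-y and Hbb-bh1, the genes Hbb-bh0, Hbb-bh2 and Hbb-bh3 of the beta cluster, and myoglobin (Mb). The theta globin copies beside the alpha genes had 0 and 9 counts in the knockout library and 11 and 0 in the WT library, for Hbq1a and Hbq1b in that order. Cytoglobin (Cygb), which stellate cells of the liver express, was the only 1 of the 11 above the filter on low values. It had 584 counts in the knockout library and 231 in the WT library (log2 ratio 1.42).

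Heme synthesis enzymes, which hepatocytes also use, had ratios mostly close to 0. Of 8 enzymes besides Alas2, 1 was at least 2-fold lower in the knockout library and 0 higher, with a median log2 ratio of 0.17. Among all genes compared, 8.61% were lower by as much and 8.45% higher, the shares to set beside each list below. Coproporphyrinogen oxidase (Cpox) was the lower one, with 1321 counts in the knockout library and 4778 in the WT library (log2 ratio -1.77). Alas1, the form used in other tissues including liver, had 30986 and 42279 counts in the knockout and WT libraries (-0.36). Ppox (0.55), Uros (0.42) and Urod (0.37) were the highest. Iron and heme transport genes of erythroblasts, many of which hepatocytes share, had 0 of 13 past 2-fold in either direction and a median of -0.06. At the low end stood the glutaredoxin Glrx5 (-0.62), the transferrin receptor Tfr2 (-0.41) and the heme transporter Slc48a1 (-0.27). Towards the high end stood Steap3 (0.43) and the mitochondrial iron importer Slc25a37 (0.50).

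Red cell membrane genes were mostly too scarce to compare. Of 19 genes besides Slc4a1, 7 passed the filter on low values, 0 of them at least 2-fold lower and 1 at least 2-fold higher in the knockout library. Their median was 0.49. Of all genes compared, 8.61% were at least 2-fold lower and 8.45% at least 2-fold higher. The defining markers Epb42 and Rhag were listed at 0 in both libraries, while Alas2 had 19110 counts in the knockout library and 13871 in the WT library. The blood group adhesion gene Icam4 had 88 counts in the knockout library and 17 in the WT library (log2 ratio 2.42). Xk (0.89), Epb41 (0.71) and the water channel Aqp1 (0.46), which other liver cells also express, lay between Icam4 and the low end. Glycophorin C (Gypc, -0.68) and beta spectrin (Sptb, -0.22) were the lowest.

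Erythroid transcription factors and erythropoietin signalling genes had medians somewhat below 0. Of 13 transcription factors, 8 were compared, 2 were at least 2-fold lower and 0 higher, and the median was -0.32. For these and for the erythropoietin genes, the shares of all genes were 8.61% lower and 8.45% higher. Tal1, which acts with Gata1 in erythroblasts and is also found in endothelium, had 34 counts in the knockout library and 78 in the WT library (log2 ratio -1.10). Zbtb7a stood at -1.08 and Cbfa2t3 at -0.62, while Lmo2 (0.49), E2f2 (0.41) and Ldb1 (0.17) were the highest. Gata1 itself had 0 counts in the knockout library and 6 in the WT library. Among 11 erythropoietin genes, 10 were compared, with 3 at least 2-fold lower, 0 higher and a median of -0.37. These include Epo, which was listed at 0 in the knockout library, and without it 2 of 9 were lower and the median was -0.12.

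Epo, the hormone that drives red cell formation, was listed at 0 in the knockout library and had 201 counts in the WT library, with 6 exons in the annotation. Genes with 1 or 2 exons were often listed at 0 in 1 library (15.3% of 851), and genes with at least 3 exons rarely (14 of 11208). Its receptor gene Epor did not differ beyond counting error, with 138 counts in the knockout library and 146 in the WT library (log2 ratio 0.00, interval -0.34 to 0.35). Cish, a STAT5 target that growth hormone also induces in liver, had 995 counts in the knockout library and 6390 in the WT library (-2.60). Socs3, which has 2 exons and also answers to interleukin 6, stood at -1.31. Jak2 stood at 0.62 and Kit at 0.12.

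Genes of late red cell maturation went in both directions. Of 22, 18 were compared, 4 were at least 2-fold lower and 2 at least 2-fold higher in the knockout library, and the median was -0.15. The transcription factor Nfe2l1 had 2238 counts in the knockout library and 8570 in the WT library (log2 ratio -1.85), and the mitophagy receptor Bnip3l stood at -1.62. Carbonic anhydrase 1 (Car1), a major red cell enzyme, had 562 counts in the knockout library and 102 in the WT library (2.54). Cited2, which has 2 exons, had 840 and 157 counts in the knockout and WT libraries (2.50), and Car2 stood at 0.83. Over the 6 erythroid lists together, 64 of 86 genes were compared, 10 (Epo included) were at least 2-fold lower and 3 at least 2-fold higher, and the median was -0.10. Without Epo, 9 of 63 were lower and the median was -0.09. That is 10 of 64 beside 8.61% of all genes, and 3 of 64 beside 8.45%. The summed globins stood at -2.59.

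**Figure D5:**
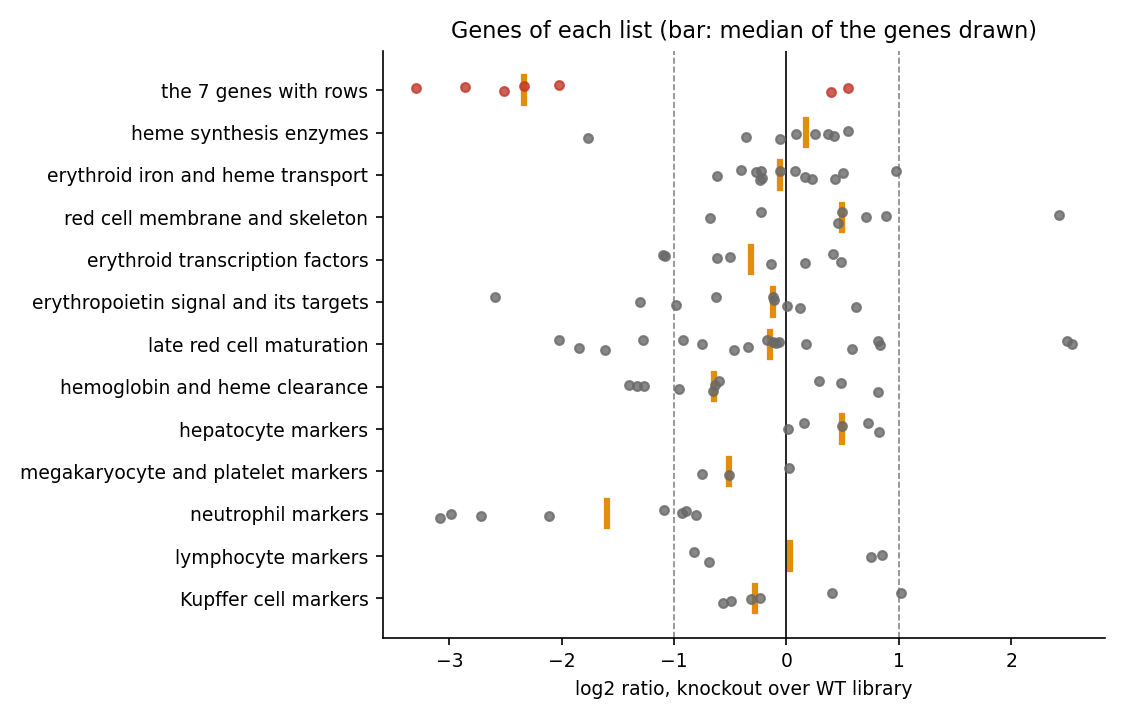
Log2 ratio of the knockout over the WT library for each gene that passed the filter on low values and was above 0 in both libraries, by list, with a bar at the median of the genes drawn, which leaves out Epo. Dashed lines mark 2-fold. The red points are the globins with Slc4a1 at the left and Klf1 and Alas2 at the right, and neutrophil markers also lie below 0 (8 of 8).

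Genes that clear hemoglobin and heme in the liver had a median below 0. Of 10, 3 were at least 2-fold lower and 0 higher in the knockout library, with a median of -0.64. The shares of all genes compared were 8.61% lower and 8.45% higher. The iron exporter Slc40a1 had 1683 counts in the knockout library and 4723 in the WT library (log2 ratio -1.40). Haptoglobin (Hp), the plasma protein that binds free hemoglobin and is also made in the acute phase, stood at -1.33, and heme oxygenase 1 (Hmox1) at -1.27. Biliverdin reductase A (Blvra, 0.81), the red pulp macrophage factor Spic (0.49) and the ferritin light chain (Ftl1, 0.29) were the highest.

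Markers of other cells differed between the libraries to unequal degrees. Neutrophil markers summed to 23.7 CPM in the knockout library and 63.2 in the WT library. Of these markers, 8 of 8 were below 0 and 5 of 8 at least 2-fold lower, beside 8.61% of all genes compared. Mpo had 58 counts in the knockout library and 526 in the WT library (log2 ratio -3.08), Elane stood at -2.98 and Ltf at -2.72. The other end was held by S100a9 (-0.93), S100a8 (-0.89) and Retnlg (-0.81). Platelet markers summed to 5.81 CPM in the knockout library and 8.40 in the WT library, with 0 of 3 compared past 2-fold: Ppbp (-0.75), Pf4 (-0.51) and Itga2b (0.02). Gp1bb, another platelet marker, was listed at 0 in the knockout library and had 30 counts in the WT library. It was below the filter on low values and has 2 exons, a class often listed at 0 in 1 library, as given above.

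Lymphocyte markers summed to 10.8 CPM in the knockout library and 10.2 in the WT library. None of the 4 compared was past 2-fold, from the T cell gene Cd3d (-0.82) and Nkg7 (-0.69) to the B cell genes Cd79a (0.75) and Cd79b (0.85). Kupffer cell markers summed to 787 and 1022 CPM in the knockout and WT libraries, with 0 of 6 at least 2-fold lower and 1 higher, from Cd5l (-0.56), Marco (-0.49) and Adgre1 (-0.32) to Clec4f (-0.23), Timd4 (0.41) and Vsig4 (1.02). Hepatocyte markers were plentiful, at 133597 CPM in the knockout library and 86382 CPM in the WT library, and 0 of 5 were past 2-fold. They ran from Apoa1 (0.01), Serpina1a (0.15) and Cyp2e1 (0.50) to Ttr (0.73) and Alb (0.83). The part of these markers, and of blood left in the tissue, in the globin difference was not tested.

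Among the 4724 other genes with 4 exons or more and at least 1000 counts on average, the 5 closest to the summed globins in log2 ratio were Ighg2c (-2.57), Elovl5 (-2.55), Slc16a10 (-2.65), Atp11a (-2.66) and Atxn7l3 (-2.49). With 2 libraries this likeness is that of a single ratio.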

How the data were processed

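Per the labels' protocols, liver RNA of Rcrin conditional knockout and Rcrin flox (WT) mice was extracted with Trizol, and a SMARTER mRNA-Seq kit was used. The authors deposited raw whole-number counts for each Ensembl gene. The submitters' processing notes name GRCm38 (mm10). The aligner, counter, strand setting and handling of multi-mapping reads are not given in the sources used here. Groups came from the genotype labels.

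Names, positions and exons came from GENCODE M21, and exon number is that of the transcript with most exons. Library scaling used the TMM factors of edgeR 4.0.16 in R 4.3.3 (0.982 for the knockout, 1.02 for WT), computed on the whole table. Log2 ratios are knockout over WT, taken after adding 0.5 counts in proportion to library size. Genes averaging 50 counts or more were compared, and called at 2-fold. No test was run, since edgeR and DESeq2 need replicates. Intervals are exact (conditional, Poisson or Clopper-Pearson) at 95%, except those of the log2 difference between 2 quotients, which use a normal approximation. All intervals cover counting error only and take reads as independent. PCR reads without molecular identifiers are not independent, so the intervals can be too narrow even for counting error. For a gene listed at 0 in 1 library no fold is printed, but it is counted as past the limit and kept in its list's median. No list median changed when zeros were replaced by 3 counts. That replacement could not move a median, because Epo was the only compared list gene with a zero and it stayed the lowest of its list. Leaving Epo out moved the median of its list from -0.37 to -0.12. The steps were tested on simulated data.

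The 8 genes and the 13 other lists were chosen with earlier results of these data known. Named genes were the 8, up to 3 from each end of each list, and the 5 closest in ratio. Apex2 and the scarce genes Epb42, Rhag, Gata1, Gp1bb and the other globins outside that rule were named after their values were seen. Some genes that the rule took are not reported here. Alternatives were DESeq2 1.42.0 size factors, total counts, TMM from genes with at least 5 exons, other limits and filters, 5 counts added, and other lengths.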

Additional observations from a re-analysis of the deposited data

How the results depend on the processing

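With 1 library per genotype no library could be left out and no spread between mice is known. No paired analysis was possible because each genotype had a single library. The 5 lower genes among the 7 stayed lower under each scaling tried, at a limit of 4-fold or 1.5-fold, and with 5 counts added; at a mean of at least 500 counts 4 of 5 remained, as Slc4a1 and Klf1 were left out. The summed globin log2 ratio was -2.64 with scaling by total count, -2.28 for beta globins only and -3.04 for alpha globins only. The difference in Alas2 per globin (log2 3.14) was 2.83 against beta and 3.59 against alpha globins. Of the other erythroid genes 10 were lower. That count was 3 of 64 at 4-fold, beside 2.80% of all genes, 17 of 64 at 1.5-fold and 19 of 79 without a filter. It was 6 of 46 at a mean of at least 500 counts and 6 of 46 for genes with at least 5 exons. The share of all genes at 1.5-fold, without a filter or under these 2 limits is not reported here. The 3 higher genes became 10 of 64 at 1.5-fold and 4 of 79 without a filter. They became 0 of 46 at a mean of at least 500 counts and 1 of 46 for genes with at least 5 exons. Without genes listed at 0 in 1 library, an alternative chosen after seeing the data, 9 were lower and 3 higher. Median transcript lengths, which count short fragments of a gene, changed both orders of levels per length, as given above. The cause of these shifts was not tested. Depth limits Slc4a1 and Klf1 most.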
